A study of Rattus norvegicus with 6 samples.

Results

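The genes described here encode the muscle acetylcholine receptor and the proteins that gather it into clusters at the neuromuscular junction. They are the 10 genes Chrna1, Chrnb1, Chrnd, Chrne, Chrng, Agrn, Lrp4, Musk, Dok7 and Rapsn, chosen as the rows whose symbol equals one of these names. All 10 are among the 31038 genes listed, and 8 of them passed the filter on low counts that left 12724 genes for testing. The libraries are RNA sequencing counts from cells that the labels call NRVM and describe as derived from rat embryonic heart muscle. One group of 3 libraries came from cells given an siRNA against eIF3m, a subunit of translation initiation factor 3, and the other group of 3 came from cells given a control siRNA. The cell label and the medium with serum are the same for both groups. A text on dexamethasone, IBMX and insulin also stands among the protocols of both, without saying whether these cells received them. Beyond the word embryonic and the term NRVM, the labels give no age. They name no strain, time after transfection or siRNA sequence. Nothing says that the 3 replicates were separate cultures, so the p-values measure the spread between these libraries, which may be technical.

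The muscle acetylcholine receptor is a channel of several subunits that opens when acetylcholine binds. Its fetal form contains the gamma subunit and its adult form the epsilon subunit, beside alpha, beta and delta subunits. Agrin, released by the motor nerve and also made by muscle, binds Lrp4, which then activates the receptor tyrosine kinase MuSK. The adaptor Dok7 sustains that kinase activity, and rapsyn holds the receptors together beneath the membrane. Heart muscle cells do not form such a junction with motor axons, and skeletal muscle cells transcribe many of these genes as they differentiate.

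Total counts ran from 2156186 in eIF3m replicate 2 to 10061575 in eIF3m replicate 1, with 7437285 to 8603602 in the 3 control libraries. Levels are CPM, the count as a rate over the library total, after TMM scaling for composition, and 3 counts, taken as the floor of what can be read, were worth 0.287 to 1.33 CPM. Gene lengths were not used, so levels are compared between groups and not between genes. Eif3m itself stood at 92.0, 84.1 and 87.6 CPM in the eIF3m siRNA libraries and at 138, 136 and 141 CPM in the control libraries (log2 fold change -0.64 ± 0.052 SE, adjusted p = 1.41e-07). In the comparison over all genes, 2220 rose and 2700 fell, which is 38.7% of those tested at an adjusted p under 0.05. With no scaling factors the split was 4163 risen and 1680 fallen, with upper-quartile scaling it was 3015 and 2130, and the median log2 fold change of all genes moved to 0.16 with no scaling factors, against 0.013 with TMM.

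The label was checked against marker genes. Of 16 heart muscle markers, 8 averaged below 1 CPM over the 6 libraries, among them Myh6, Myh7, Nppb, Tnni3, Actn2, Ryr2 and Myl2, and Myl3 had no count. Tnnt2 stood at 143 to 159 CPM in eIF3m siRNA libraries and at 360 to 377 CPM in control libraries, and Tnnc1 at 69.5 to 82.6 CPM with eIF3m siRNA and at 151 to 158 CPM with control siRNA. Ttn averaged 9.16 CPM with eIF3m siRNA and 23.7 CPM with control siRNA, and Pln averaged 3.35 CPM with eIF3m siRNA and 25.1 CPM with control siRNA. The heart transcription factors Nkx2-5 (21.4 CPM with eIF3m siRNA, 20.4 CPM with control siRNA) and Gata4 (10.2 CPM with eIF3m siRNA, 8.7 CPM with control siRNA) were measured too. Of 16 skeletal muscle markers 7 averaged below 1 CPM. Cdh15, Tnnt3, Myh3, Myod1 and Myog were measured above 4 CPM in all 6 libraries, while Pax3 and Pax7 had no count. Of 17 markers of nerve and Schwann cells 14 averaged below 1 CPM, and Slc18a3, Snap25, Nefl and Sox10 had no count. The summed level of this list was 26.2 to 28.6 CPM in eIF3m siRNA libraries and 18.2 to 23.8 CPM in control libraries, most of it from Vamp1 and Tubb3. The library eIF3m replicate 1 stood apart: its 6 blood markers summed to 6220 CPM, against 230 and 51.8 CPM in eIF3m replicates 2 and 3 and 32.9 to 78.2 CPM in control libraries. Its 8 endothelial markers summed to 189 CPM, against 38.5 and 32.2 CPM in eIF3m replicates 2 and 3 and 38.2 to 49.8 CPM in control libraries. Dcn, a fibroblast marker, stood at 55.5 CPM in it, against 2.21 and 1.8 CPM in the other eIF3m siRNA libraries and 0.986 to 1.28 CPM in control libraries. Without that library Chrnb1 was at -0.63, Chrnd at -1.86, Rapsn at -0.46 and Agrn at 0.25 on the log2 scale, each with the test passed, and the values of Chrne, Lrp4, Musk and Dok7 without it stand beside those genes.

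**Figure D1:**
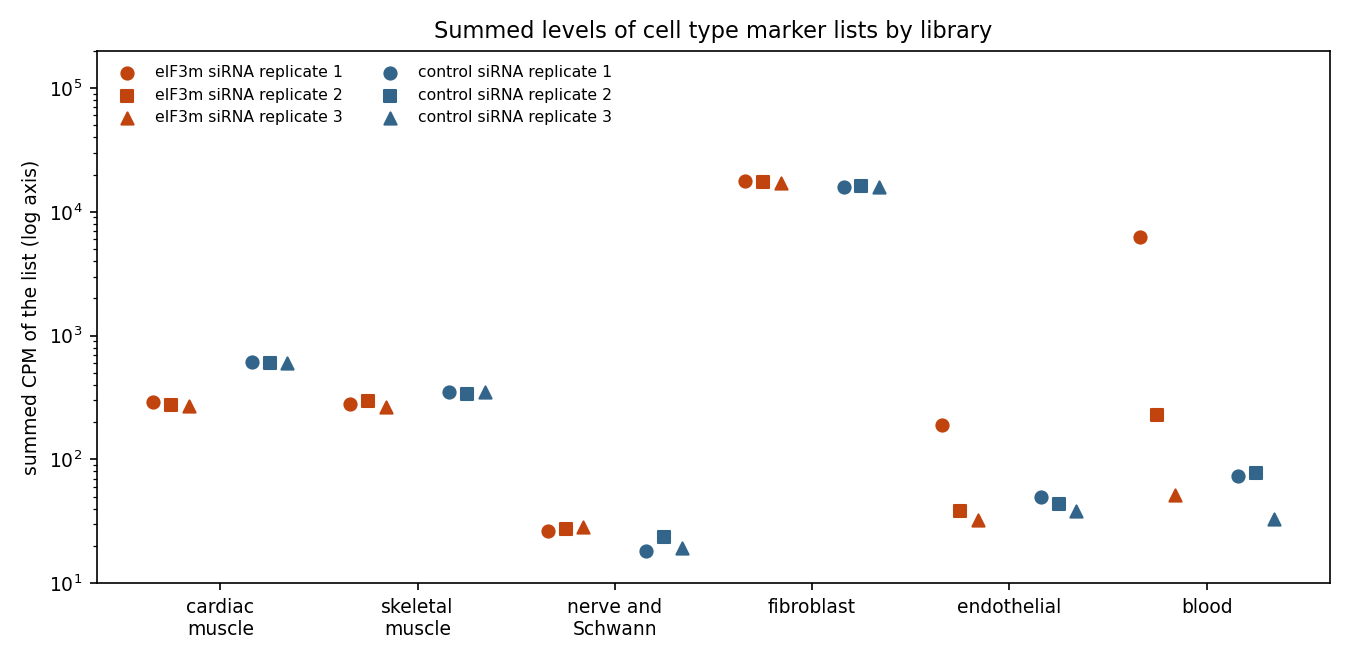
Summed CPM (log axis) of 6 lists of cell type markers, with one point per library and eIF3m siRNA to the left of control siRNA. Blood and endothelial markers were high in eIF3m replicate 1, at 6220 and 189 CPM. Heart muscle markers summed to 268 to 290 CPM in eIF3m siRNA libraries and 597 to 608 CPM in control libraries, most of it from Tnnt2 and Tnnc1.

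Promoter sequence was available for 8 of the 10 genes from RefSeq, as windows of 300 bases that run from 250 bases before to 50 bases after the annotated start in the GRCr8 build. The build named for the counts is rn6, so these windows show sequence only. The windows of the 4 genes that passed the test and had a window are printed, to show where they hold an E-box, CANNTG, the motif that myogenic factors such as MyoD and myogenin bind. Capitals mark each CANNTG, and in Chrnd also a CCGGAA read on the opposite strand as TTCCGG. In GRCr8 the Chrnb1 window lies at chr10:55015058-55015357 on the minus strand, the Chrnd window at chr9:95310066-95310365 on the plus strand, the Musk window at chr5:77853486-77853785 on the plus strand and the Agrn window at chr5:172052776-172053075 on the minus strand, each printed 5′ to 3′ on its gene's strand.
Chrnb1: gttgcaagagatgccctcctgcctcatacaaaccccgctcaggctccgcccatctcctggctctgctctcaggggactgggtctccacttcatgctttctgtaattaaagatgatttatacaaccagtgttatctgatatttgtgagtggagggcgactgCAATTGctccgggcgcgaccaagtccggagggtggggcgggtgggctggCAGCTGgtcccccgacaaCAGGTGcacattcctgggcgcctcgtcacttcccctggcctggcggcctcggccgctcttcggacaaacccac
Chrnd: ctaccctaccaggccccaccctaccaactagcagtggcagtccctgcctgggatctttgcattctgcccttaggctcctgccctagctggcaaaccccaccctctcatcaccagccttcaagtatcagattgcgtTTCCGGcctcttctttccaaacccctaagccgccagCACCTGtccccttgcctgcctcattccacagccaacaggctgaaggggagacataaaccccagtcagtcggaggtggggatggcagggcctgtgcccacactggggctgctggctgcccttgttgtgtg
Musk: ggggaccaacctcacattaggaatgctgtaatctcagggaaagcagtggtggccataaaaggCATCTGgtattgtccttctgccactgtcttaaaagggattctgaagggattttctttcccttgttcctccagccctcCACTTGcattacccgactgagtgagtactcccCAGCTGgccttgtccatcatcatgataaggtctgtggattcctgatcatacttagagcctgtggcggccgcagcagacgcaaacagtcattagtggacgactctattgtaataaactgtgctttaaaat
Agrn: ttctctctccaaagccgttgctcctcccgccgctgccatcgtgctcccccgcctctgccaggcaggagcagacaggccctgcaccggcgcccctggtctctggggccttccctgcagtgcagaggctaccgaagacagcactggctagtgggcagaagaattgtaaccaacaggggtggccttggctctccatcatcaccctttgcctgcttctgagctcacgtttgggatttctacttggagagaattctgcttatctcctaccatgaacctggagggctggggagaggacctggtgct
The Chrnb1 window held CAATTG with its first base 90 bases before the start, CAGCTG at 41 bases and CAGGTG at 23 bases. The Chrnd window held CACCTG at 79 bases and TTCCGG at 115 bases before the start. The Musk window held CATCTG at 188 bases, CACTTG at 111 bases and CAGCTG at 79 bases before the start, and the Agrn window held neither motif. The Agrn and Chrne windows belong to starts inside the annotated gene. On both strands, CANNTG was found in 7 of the 8 windows and in 72.1% of all 33469 windows of the same length. CAGCTG, one form of CANNTG, was found in 5 of 8 and in 15.1% of all. CCGGAA, the core of the N-box that ETS-family factors bind, was found in Chrnd and Chrne, 2 of 8, and in 15% of all windows.

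Transcripts of 2 receptor subunits, Chrnb1 and Chrnd, fell with eIF3m siRNA, as did those of Rapsn and Musk, while Agrn rose. Thus 4 of the 8 tested genes fell and 1 rose, where 21.2% of all tested genes fell and 17.4% rose. Chrne, Lrp4 and Dok7 did not pass the test. The median log2 fold change of the 8 was -0.10, against 0.013 over all genes tested, and with no scaling factors it was 0.047 against 0.16. In 5 of the 8 the groups did not overlap in CPM, which was so for 48.6% of all tested genes. In bulk RNA, fewer cells of one type and less RNA per cell cannot be told apart. Skeletal muscle markers summed to 265 to 295 CPM in eIF3m siRNA libraries and 337 to 352 CPM in control libraries, with 0 risen and 6 fallen of 8 tested. Without eIF3m replicate 3 that count was 3 fallen, without control replicate 3 it was 4, and in thinned libraries it was 3. Cdh15 made up most of the skeletal muscle sum, at 190 to 212 CPM with eIF3m siRNA and 218 to 229 CPM with control siRNA. Of the heart muscle markers 0 rose and 4 fell (Tnnt2, Tnnc1, Pln and Ttn) of 6 tested. The heart transcription factors Nkx2-5 (0.032 ± 0.12 SE, adjusted p = 0.866) and Gata4 (0.34 ± 0.20 SE, adjusted p = 0.205) did not pass. Fibroblast markers summed to 17000 to 17800 CPM in eIF3m siRNA libraries and 15800 to 16300 CPM in control libraries, with 5 risen (Col1a1, Col3a1, Postn, Lum and Dcn) and 2 fallen (Thy1 and Ddr2) of 8 tested, or 4 risen and 3 fallen without eIF3m replicate 1. Col1a1 made up most of the fibroblast sum, at 13100 to 13400 CPM with eIF3m siRNA and 11900 to 12100 CPM with control siRNA. The part of these cell types in the results was not tested.

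**Figure D2:**
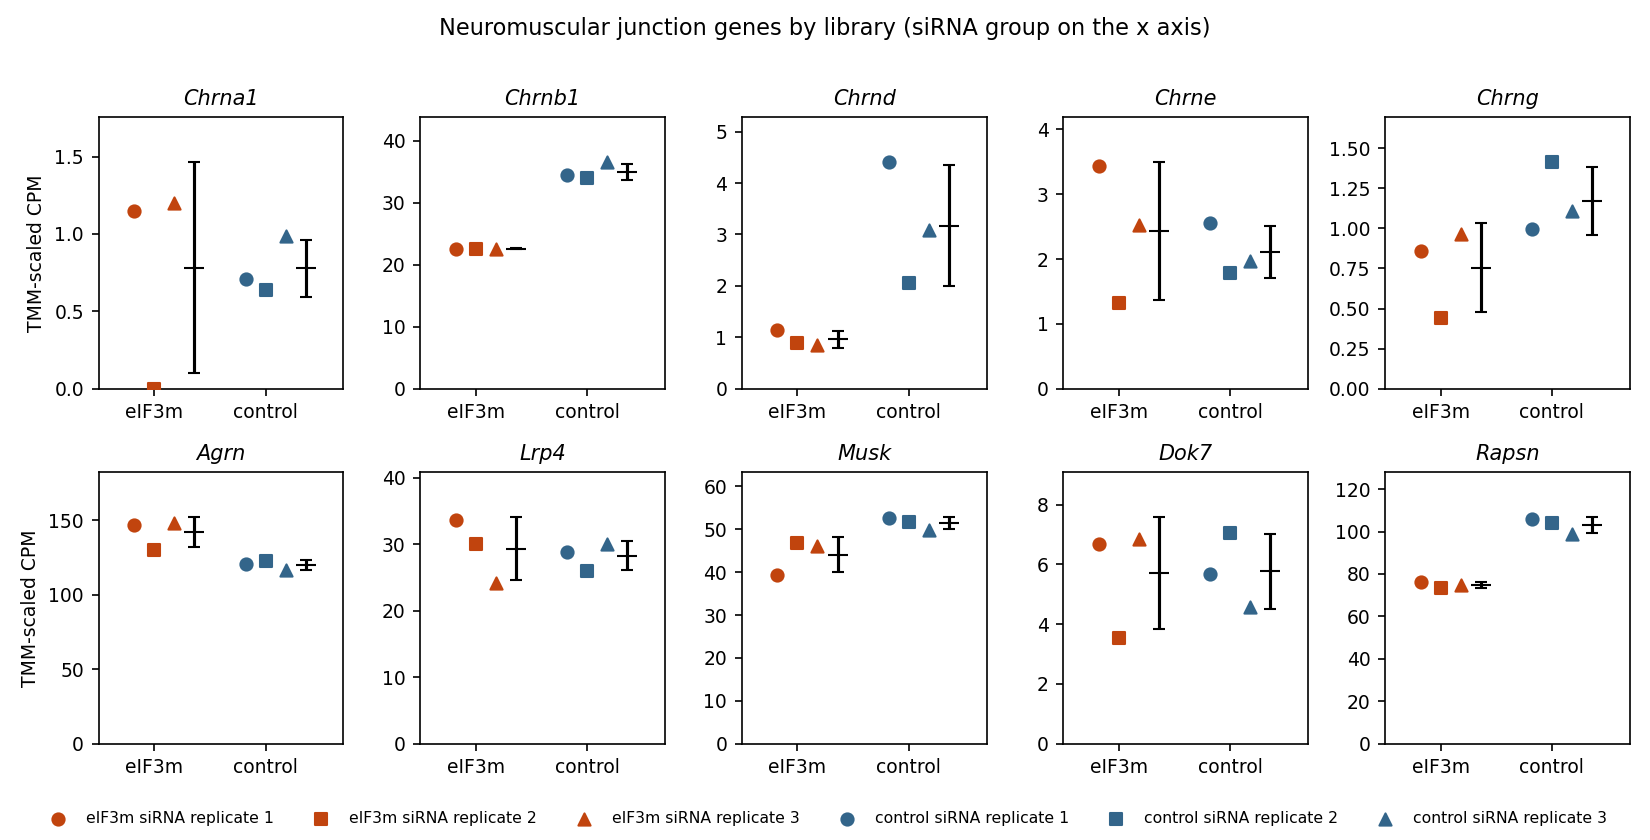
TMM-scaled CPM of each of the 10 genes by library, with eIF3m siRNA left of control siRNA; horizontal ticks and bars are the group mean and SD (n = 3). Chrnb1, Chrnd, Musk and Rapsn lay lower in all 3 eIF3m siRNA libraries than in any control library, and Agrn lay higher.

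Chrnb1, the beta subunit of the receptor, had 236, 51 and 188 counts in eIF3m replicates 1, 2 and 3 and 243, 266 and 296 counts in control replicates 1, 2 and 3. Scaled, this was 22.6 CPM in each of the 3 eIF3m siRNA libraries, against 34.5, 34 and 36.5 CPM in the control libraries. The groups lay well apart. The 3 eIF3m siRNA values lay closer together than counting error on the 51 counts of replicate 2 would usually give. Their SD therefore does not measure precision. The mean was 22.6 ± 0.0256 CPM with eIF3m siRNA and 35.0 ± 1.30 CPM with control siRNA (SD, n = 3 each), a log2 fold change of -0.63 ± 0.089 SE (edgeR quasi-likelihood test, adjusted p = 4.11e-05), or -35.5%. Chrnb1 missed the threshold when all libraries were thinned to the smallest total (-0.42, adjusted p = 0.0524). In the RefSeq table, whose build differs from that of the counts, Chrnb1 overlaps Zbtb4, which encodes a zinc finger protein. Zbtb4 stood at 31.7, 33.6 and 38.4 CPM in eIF3m siRNA libraries and at 48.8, 48.6 and 50.6 CPM in control libraries (-0.51 ± 0.083 SE, adjusted p = 1.64e-04). Whether reads of one were counted for the other was not tested.

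Chrnd, the delta subunit, had few counts, with 12, 2 and 7 in the eIF3m siRNA libraries and 31, 16 and 25 in the control libraries. Its levels were 1.15, 0.885 and 0.842 CPM with eIF3m siRNA, against 4.4, 2.05 and 3.08 CPM with control siRNA. All 3 eIF3m siRNA libraries lay below every control library, and eIF3m replicate 2 lay under its floor. The mean was 0.958 ± 0.165 CPM with eIF3m siRNA and 3.17 ± 1.18 CPM with control siRNA (SD, n = 3 each), a log2 fold change of -1.65 ± 0.40 SE (adjusted p = 0.00441). Its size is imprecise: the interval of 1.96 SE ran from -2.45 to -0.86, and leaving out 1 library moved the estimate between -1.90 and -1.37 with the test passed each time. Chrnd could not be tested in thinned libraries or under the stricter filter, since its counts fell below both.

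The remaining 3 subunits had few counts. Chrne, the epsilon subunit of the adult receptor, stood at 3.44, 1.33 and 2.53 CPM in eIF3m siRNA libraries and at 2.55, 1.79 and 1.97 CPM in control libraries. The groups overlapped, and the log2 fold change was 0.38 ± 0.35 SE (adjusted p = 0.428; interval -0.31 to 1.06). Without eIF3m replicate 1 it was 0.064 (adjusted p = 0.931). In the RefSeq table Chrne overlaps C10h17orf107 and the platelet glycoprotein gene Gp1ba, which had 19, 2 and 6 counts in eIF3m siRNA libraries and 5, 5 and 8 counts in control libraries. Chrng, the gamma subunit of the fetal receptor, had 9, 1 and 8 counts in eIF3m siRNA libraries and 7, 11 and 9 counts in control libraries. Chrna1, the alpha subunit that carries the main face of the acetylcholine binding site, had 12, 0 and 10 counts in eIF3m siRNA libraries and 5, 5 and 8 counts in control libraries. Chrng lay lower in each eIF3m siRNA library than in any control library in CPM, with 18 counts in all against 27, while for Chrna1 the groups overlapped. Neither passed the filter, and a difference was not detectable at this depth. Without the filter the log2 fold change was -0.51 ± 0.63 SE for Chrng (adjusted p = 0.59) and 0.26 ± 0.65 SE for Chrna1 (adjusted p = 0.818).

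Ratios within a library need no scaling and show whether subunits moved by unlike amounts. The log2 ratio of Chrnd to Chrnb1 was -4.24, -4.36 and -4.65 in eIF3m siRNA libraries and -2.95, -4.01 and -3.54 in control libraries, with 0.5 added to each count. The groups did not overlap, and the mean was -4.42 ± 0.21 with eIF3m siRNA and -3.50 ± 0.53 with control siRNA (SD, n = 3 each). The difference of -0.92 gave p = 0.1 in an exact two-sided permutation test, which is the smallest that 3 against 3 libraries allow. This pair was chosen because earlier results of these data named both subunits as lower, so the p-value is not independent support. Without control replicate 1 the difference was -0.64, and Chrnd had only 2 to 31 counts per library. The log2 ratio of Chrne to Chrng, the adult and the fetal subunit, was 1.94, 1.22 and 1.34 in eIF3m siRNA libraries and 1.30, 0.33 and 0.80 in control libraries. Here eIF3m replicate 2 lay below control replicate 1, and the difference of 0.69 did not pass (exact permutation p = 0.2). The difference was 0.47 without eIF3m replicate 1, 0.45 without control replicate 2 and 1.47 in thinned libraries. That ratio rests on 1 to 36 counts per gene and library.

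Agrn, which encodes agrin, a heparan sulphate proteoglycan that also lies in the matrix of other tissues, stood at 147, 130 and 148 CPM in eIF3m siRNA libraries and at 121, 123 and 117 CPM in control libraries. All 3 eIF3m siRNA libraries lay above the controls, eIF3m replicate 2 by the smallest margin. The mean was 142 ± 10.1 CPM with eIF3m siRNA and 120 ± 3.39 CPM with control siRNA (SD, n = 3 each), a log2 fold change of 0.25 ± 0.056 SE (adjusted p = 0.0022). Agrn passed in all 15 alternative settings, with 0.40 when no scaling factors were used. The counts do not separate the splice forms of agrin, of which the nerve form is the one that clusters receptors.

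Lrp4, the receptor for agrin, stood at 33.6, 30.1 and 24.2 CPM in eIF3m siRNA libraries and at 28.9, 26.0 and 30.1 CPM in control libraries. The groups overlapped fully, and the log2 fold change was 0.047 ± 0.12 SE (adjusted p = 0.789; interval -0.19 to 0.28). The interval excludes a change as large as that of Chrnb1. Without eIF3m replicate 1, which held the highest Lrp4 level, the value was -0.12 (adjusted p = 0.503). In the RefSeq table Lrp4 overlaps 2 loci that bear placeholder names.

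Musk, the receptor tyrosine kinase, stood at 39.4, 46.9 and 46.1 CPM in eIF3m siRNA libraries and at 52.6, 51.6 and 49.9 CPM in control libraries. The groups did not overlap, and eIF3m replicate 1 was the lowest. The log2 fold change was -0.25 ± 0.077 SE (adjusted p = 0.0203), or -15.7%. This call was lost without eIF3m replicate 1 (-0.14, adjusted p = 0.218), without control replicate 1 (-0.23, adjusted p = 0.0721) or control replicate 2 (-0.25, adjusted p = 0.0606). It was also lost with DESeq2 (-0.23, adjusted p = 0.0999), upper-quartile scaling (-0.18, adjusted p = 0.0812) and no scaling factors (-0.10, adjusted p = 0.326). In the RefSeq table Musk overlaps 4930522L14Rikl.

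Dok7, the adaptor of MuSK, stood at 6.69, 3.54 and 6.86 CPM in eIF3m siRNA libraries and at 5.67, 7.04 and 4.56 CPM in control libraries. The groups overlapped, with 8 counts in eIF3m replicate 2 and 37 to 70 in the others. Its log2 fold change was 0.10 ± 0.25 SE (adjusted p = 0.777; interval -0.39 to 0.59), and 0.034 without eIF3m replicate 1 (adjusted p = 0.944). Rapsn, which encodes rapsyn, the scaffold that binds the receptor, stood at 76.0, 73.5 and 74.9 CPM in eIF3m siRNA libraries and at 106, 104 and 98.9 CPM in control libraries. Both groups were tight and lay apart. The mean was 74.8 ± 1.25 CPM with eIF3m siRNA and 103 ± 3.69 CPM with control siRNA (SD, n = 3 each), a log2 fold change of -0.46 ± 0.053 SE (adjusted p = 6.00e-06), or -27.1%. Rapsn passed in all 15 alternatives, from -0.49 to -0.31.

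**Figure D3:**
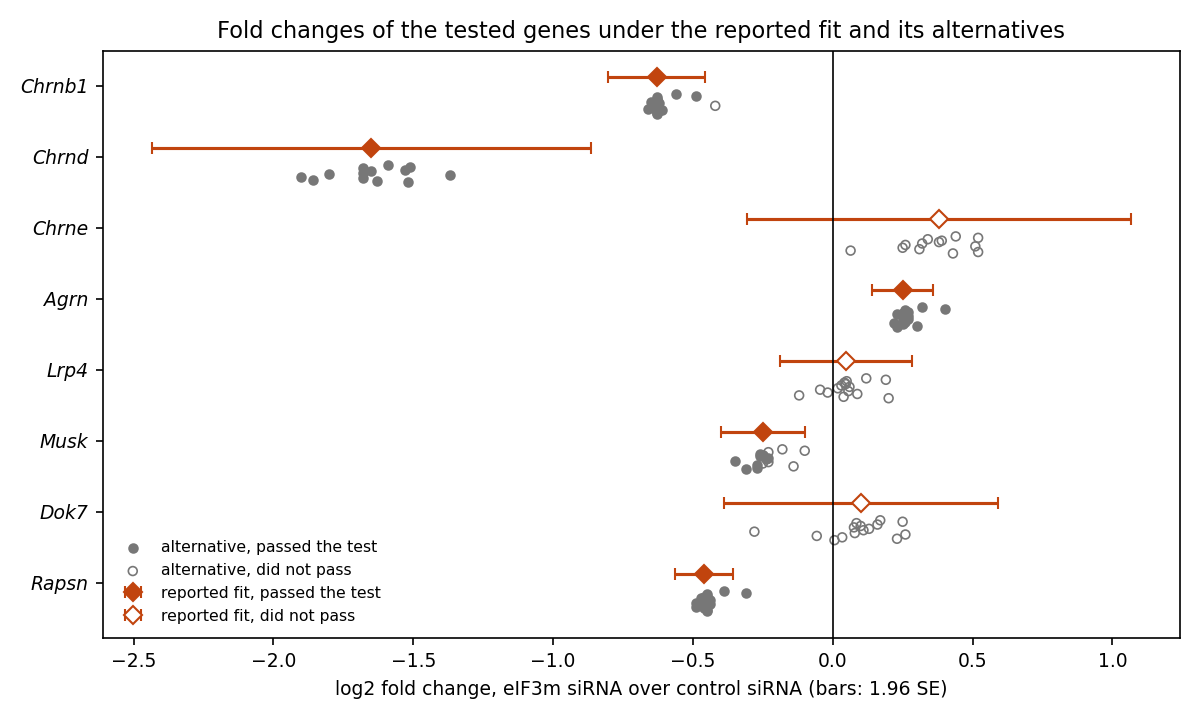
Log2 fold changes (eIF3m siRNA over control siRNA) of the 8 tested genes: diamonds with bars of 1.96 SE are the reported fit and circles its alternatives, filled where the test was passed. Chrnd and Rapsn lay below 0 and Agrn above 0 with the test passed in each alternative that could test them, while Lrp4 and Dok7 crossed 0.

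Other genes of the junction were counted from lists, to be read against the 17.4% of all tested genes that rose and the 21.2% that fell. For the folding and glycosylation of receptors in the endoplasmic reticulum, 0 rose and 6 fell of 8 tested, with a median log2 fold change of -0.42 against 0.013 over all genes tested. Canx, the lectin chaperone calnexin, stood at 576 CPM with eIF3m siRNA and 968 CPM with control siRNA (-0.75 ± 0.032 SE). Dpagt1, the enzyme of the first step of N-glycan assembly (-0.42 ± 0.053), Alg2, a mannosyltransferase of the same route (-0.74 ± 0.069), and Mesdc2, a chaperone of receptors of the Lrp family (-0.60 ± 0.05), also fell. In humans, mutations of DPAGT1, ALG2, GFPT1 and GMPPB are among those that cause myasthenic syndromes. Gfpt1 (0.067 ± 0.052 SE, adjusted p = 0.335) and Gmppb (0.15 ± 0.17 SE, adjusted p = 0.52), also of this list, did not pass. With no scaling factors 1 member of this list rose and 4 fell.

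Of the postsynaptic scaffold genes, 2 rose and 6 fell of 12 tested, with a median of -0.38, and the share risen was near that of all tested genes. Dag1, dystroglycan, a receptor for agrin and laminin, stood at 329, 338 and 325 CPM with eIF3m siRNA, against 684, 662 and 665 CPM with control siRNA (-1.02 ± 0.036 SE, adjusted p = 1.05e-11). Syne1, which anchors nuclei (-0.64 ± 0.052), Ncam1, a cell adhesion molecule (-0.58 ± 0.035), and Sntb1, a syntrophin (-0.85 ± 0.12), fell too. The members that rose were Dmd, dystrophin (0.54 ± 0.091), and Dtnb, a dystrobrevin (0.27 ± 0.068), and with no scaling factors 4 rose and 5 fell. Among genes of the synaptic basal lamina 0 rose and 7 fell of 10 tested, with a median of -0.27. Lamb2, the laminin chain concentrated at the synapse, stood at 466 CPM with eIF3m siRNA and 894 CPM with control siRNA (-0.94 ± 0.035 SE), and Lamc1 (-0.98 ± 0.028), Nid1 (-0.66 ± 0.027) and Lama5 (-0.37 ± 0.019) fell as well. With no scaling factors 4 fell. Ache, the acetylcholinesterase gene, was under its floor or near it at 0.287, 0.443 and 0 CPM with eIF3m siRNA and at 0.425, 0.384 and 0.739 CPM with control siRNA, and was not tested. Colq, the collagen tail that tethers that enzyme, was at -0.56 ± 0.32 SE (adjusted p = 0.191).

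Genes acting downstream of MuSK counted 4 risen and 1 fallen of 20 tested, with a median of 0.029, and the share risen was near that of all tested genes. Without control replicate 1 the count risen was 2. Src, a kinase that phosphorylates receptor subunits, stood at 107 CPM with eIF3m siRNA and 135 CPM with control siRNA (-0.31 ± 0.064 SE). Fyn, a kinase of the same family (0.20 ± 0.054), Pak1, a kinase activated by Rac (0.26 ± 0.055), Dvl3, a dishevelled protein that binds MuSK (0.19 ± 0.052), and Macf1, a cytoskeletal linker (0.11 ± 0.04), rose. Macf1 lost its call in 6 of 15 alternatives, with 0.091 without the filter (adjusted p = 0.135) and 0.079 to 0.13 when any library but eIF3m replicate 1 was left out. Dvl3 lost it without control replicate 1 (0.15, adjusted p = 0.0808) and Pak1 in thinned libraries (0.20, adjusted p = 0.0779). With no scaling factors 10 rose and 1 fell, where 4163 of all 12724 genes rose. Of 3 tested genes of the neuregulin route 1 rose and 1 fell. The receptor Erbb3 stood at 23.5, 26.6 and 24.8 CPM with eIF3m siRNA, against 10.5, 10.1 and 10.2 CPM with control siRNA (1.26 ± 0.12 SE, adjusted p = 7.84e-07). Erbb2 fell (-0.32 ± 0.12 SE, adjusted p = 0.0426), a call lost in 9 of 15 alternatives, among them no scaling factors (-0.17, adjusted p = 0.245) and the omission of control replicate 2 (-0.22), control replicate 3 (-0.32), eIF3m replicate 2 (-0.32) or eIF3m replicate 3 (-0.26). Nrg1 did not pass (0.56 ± 0.33 SE, adjusted p = 0.209), and Erbb4 and Nrg2 were at or near 0.

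Transcription factors tied to synaptic genes counted 8 risen and 4 fallen of 18 tested, with a median of 0.092, and the share fallen was near that of all tested genes. Myog, myogenin, which activates receptor subunit genes through E-boxes, stood at 4.78, 6.20 and 5.77 CPM with eIF3m siRNA, against 22.1, 18.9 and 16.9 CPM with control siRNA (-1.84 ± 0.17 SE, adjusted p = 5.77e-07). Hdac9, a deacetylase that represses synaptic genes in mouse muscle (-1.30 ± 0.30), Runx1, which denervated muscle induces (-0.50 ± 0.056), and Gadd45a, another gene of denervated muscle (-0.27 ± 0.029), were the others that fell. Those that rose included Ets2, an ETS-family factor (0.42 ± 0.046 SE). The inhibitors of E-box binding Id1, Id2 and Id3 were among them too (0.41 ± 0.068, 0.84 ± 0.11 and 0.29 ± 0.052), and Id2 stood at 23.1, 23.5 and 25 CPM with eIF3m siRNA, against 14.2, 13.2 and 12.7 CPM with control siRNA. Myod1 did not pass (-0.086 ± 0.16 SE, adjusted p = 0.705). Gabpa, the ETS-family factor that binds the N-box, did not pass either (0.13 ± 0.077 SE, adjusted p = 0.186). Gabpb1, listed beside it, rose (0.32 ± 0.11 SE, adjusted p = 0.0296). Of 11 nicotinic subunits outside the muscle receptor, Chrnb2 alone was tested and did not pass (0.74 ± 0.35 SE, adjusted p = 0.112), and 4 had no count.

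**Figure D4:**
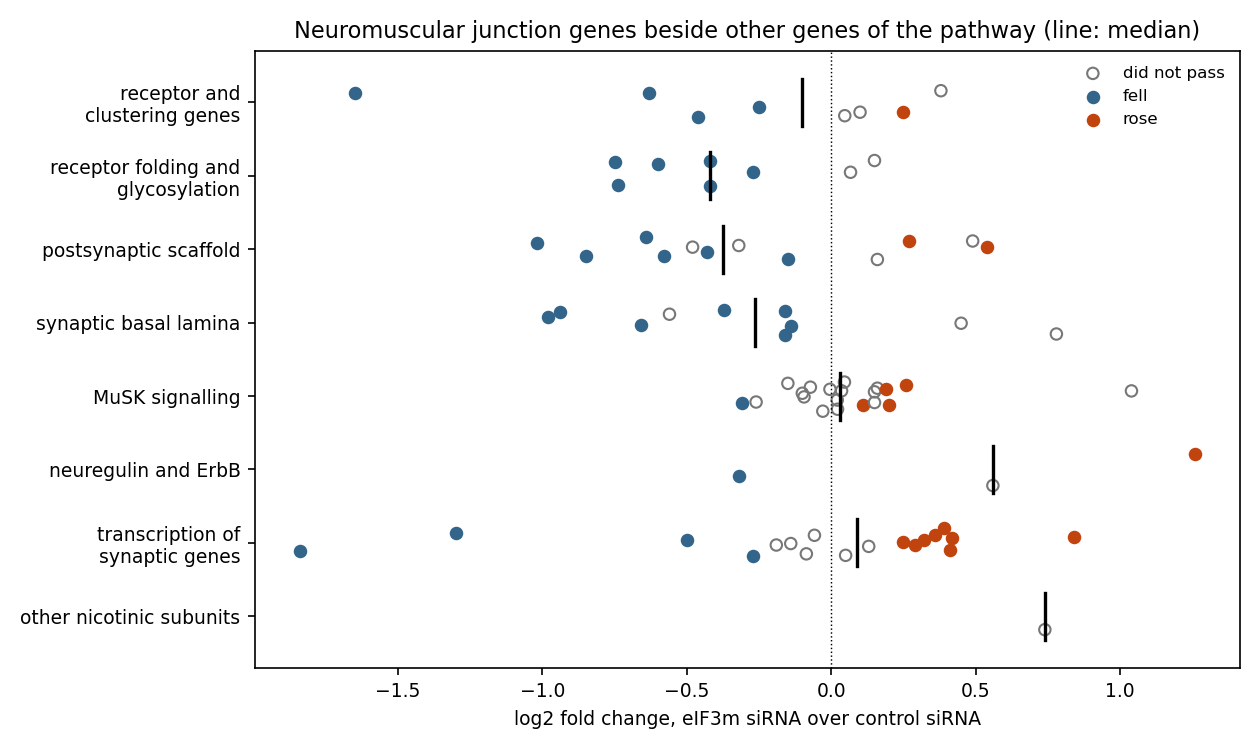
Log2 fold changes (eIF3m siRNA over control siRNA) of the receptor and clustering genes and of 7 lists of other junction genes, one point per tested gene, with the median of each list as a line. The median was -0.42 for receptor folding and glycosylation, -0.38 for the postsynaptic scaffold and 0.029 for MuSK signalling.

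For each gene that passed, the 3 genes with the most similar profile were named by Pearson correlation of log2 CPM over the 6 libraries, among 10486 genes of at least 5 CPM. For Chrnb1 these were Copg1, Kidins220 and Pdia3 (r = 0.9987 to 0.999), and for Rapsn they were Tspan9, Pdlim7 and Ggta1 (r = 0.9983 to 0.9992). For Chrnd they were Gart, Rwdd1 and Dact3, for Musk LOC497848, Ube3c and Rab34, and for Agrn Mlh3, Mrps9 and Sik3. With 2 groups of 3 libraries such values mostly reflect the difference between groups: 1245 genes reached r of 0.95 with Chrnb1, 1150 with Rapsn, 161 with Chrnd, 121 with Agrn and 53 with Musk.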

How the data were processed

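RNA sequencing counts of 6 rat libraries were used, 3 with eIF3m siRNA and 3 with control siRNA, grouped and numbered by their labels. The authors deposited whole-number counts per gene with no normalisation. Build rn6, the aligner HISAT2 2.2.1, the trimmer Trimmomatic 0.40 and the programs limma, featureCounts and DESeq2 appear in the submitters' processing notes, without order or role. Not given in the sources used here are the strand and multi-mapping settings, which leaves overlapping genes uncertain. The 27 symbols turned into calendar dates, 0.203% to 0.216% of counts, were left out.

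The genes, the lists and the Chrnd to Chrnb1 ratio were chosen with earlier results of these data known. The test was that of edgeR 4.0.16 (run in R 4.3.3): filterByExpr (minimum count 10, minimum total 15), TMM scaling, quasi-likelihood F-test without covariates, two-sided, Benjamini-Hochberg adjusted over all 12724 genes, threshold 0.05. Log2 fold changes are eIF3m siRNA over control siRNA with the standard error (SE) of the fit. The steps were tested on simulated counts in which few genes changed, as many up as down. That simulation does not cover the dependence on scaling or a library like eIF3m replicate 1. Alternatives were upper-quartile or no scaling, DESeq2 1.42.0, limma-voom 3.58.1, robust dispersion, no filter or a minimum count of 30, a replicate block, binomially thinned libraries, and leaving out each library. Named beside the 10 genes and Eif3m were, in each pathway list, the up to 4 called genes with the lowest p and directions of 5 or fewer. Ache, Colq, Id1, Id2, Id3, Gabpa, Gabpb1, Gfpt1, Gmppb, Nrg1, Chrnb2, Myod1 and marker genes were also named after their values were seen. Replicates of a group differed by more than sampling noise (chi-square per degree of freedom 1.81 to 8.465). Floors cover counting error only.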

Additional observations from a re-analysis of the deposited data

How the results depend on the processing

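Under the 15 alternatives Rapsn, Agrn and, where it could be tested, Chrnd kept direction and call. With no scaling factors 4163 genes rose and 1680 fell, and in thinned libraries 1351 and 1782; thinning leaves fewer counts, and there 2 of the 10 genes fell, with Chrnb1 at -0.42. Musk was at -0.18 with upper-quartile scaling, -0.10 with no scaling factors and -0.23 with DESeq2 and lost its call in each; the cause was not tested. Leaving out 1 library gave Musk -0.31 to -0.14. Values that did not pass changed sign for Dok7 in thinned libraries (-0.28) and without control replicate 3 (-0.057; range 0.26 to -0.057 over libraries left out) and for Lrp4 in thinned libraries (-0.045), without control replicate 2 (-0.018) and without eIF3m replicate 1 (-0.12; range -0.12 to 0.20).

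The labels do not say whether libraries of the same number were paired. Deviations from the group mean correlated at 0.0034, -0.0463 and 0.0239 within the numbers 1, 2 and 3, and not every library correlated best with its own number. Deviations within a group of 3 libraries are not independent, so these values cannot settle whether the numbers pair libraries. With a replicate block 2123 genes rose and 2632 fell, and no call among the 10 genes changed. The block gave a Chrne to Chrng difference of 0.69 and a Chrnd to Chrnb1 difference of -0.92 (exact sign-flip p = 0.25 for both, the smallest possible). Chrna1, Chrng, Chrnd and Chrne had 0 to 36 counts per library, which limits what can be read of them.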

Other observations

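Cttn, which encodes the actin-binding protein cortactin and was listed with MuSK signalling, scattered widely within both groups, which was noticed after its values were seen. Its CPM values were 28.6, 78.8 and 144 with eIF3m siRNA (replicates 1 to 3), against 57.4, 52.5 and 12.9 with control siRNA, and it did not pass the test (log2 fold change 1.04 ± 0.48 SE, adjusted p = 0.0998). Lama2, a laminin chain of muscle, was at 6.69 CPM in eIF3m replicate 1, the library with high blood markers, and at 0.443 and 0.481 CPM in the other eIF3m siRNA libraries, against 0.709, 0.512 and 0.37 CPM in control libraries. Crkl, an adaptor that binds Dok7, was at 0.382, 1.77 and 0.481 CPM in eIF3m siRNA libraries and at 0.142, 0.128 and 0 CPM in control libraries, 0 to 4 counts in each library, while its relative Crk was at 83.9 to 88.7 CPM in eIF3m siRNA libraries and 88.7 to 95 CPM in control libraries.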
